A study of Arabidopsis thaliana with 24 samples.

Results

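In roots of Arabidopsis thaliana, 68 of 22746 probe sets had a transient low 6 h after the plants were moved to fresh nutrient solution, whether or not that solution held phosphate (Pi). They were chosen on the group means of the log2 array values. The 6 h mean had to lie at least 0.8 below the 0 h mean and below the 24 h mean of the same arm, in roots with Pi and in roots without it, and the means of both arms at 6 h had to differ by less than 0.5. A probe set is a group of short probes on the array that reports the RNA of 1 gene or of several similar genes. Of the 68, 47 named 1 gene each, all of them different genes, 2 named several genes and 19 were unnamed here and are given by their probe set ID. The values at 0, 6 and 24 h chose these probe sets, so what is said of these probe sets at those times is a description and supports nothing. The arrays at 1 h were not used to choose them.

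The study took roots of 30-day-old plants grown in aerated nutrient solution under 10 h of light at 21 °C and 14 h of dark at 18 °C, after a brief rinse in EDTA solution and transfer to solution with 1.5 mM Pi (plus Pi roots) or with no Pi (minus Pi roots). About 20 plants were harvested per time point, at 0, 1, 6 and 24 h, and the experiment was run 3 times, which gave 24 one-colour Affymetrix arrays in 8 groups of 3. The labels give no genotype or strain. All groups had grown with Pi, and both arms shared the rinse and the change of solution. Roots of the plants of a harvest went into 1 array, and nothing beyond the experiment number says how separate the cultures were, so that p-values measure the spread between these arrays. Plants were transferred when the lights had been on for 1 h. The 0 h roots and, by the 24 h cycle, the 24 h roots were therefore taken 1 h into the light, the 1 h roots 2 h into it and the 6 h roots 7 h into it. Time since transfer and time of day cannot be told apart at 6 h in this design, since no roots were left untransferred at that hour. In whole roots, fewer cells of a type and less RNA per cell also cannot be told apart.

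Each array had a median between 6.34 and 6.45 on the log2 scale, values ran from 2.61 to 14.17, and replicate arrays correlated with r between 0.950 and 0.992. The number of arrays limits the precision. The root markers were present: PYK10, a root beta-glucosidase gene, had group means of 11.8 to 12.4, and SCR and SHR, regulators of the root ground tissue, lay at about 8 (8.10 and 8.0 in minus Pi roots at 6 h). A listed gene is called measured here where a probe set named that gene alone. The 5 measured photosynthesis genes that would mark shoot tissue had group means between 4.51 and 7.69. None of the 5 was among the 68. LHCA1 and LHCB4.1, which encode light-harvesting proteins, were 1.40 and 1.01 above their 0 h level at 6 h in plus Pi roots (limma adjusted p = 0.00803 and 0.111) and 0.91 and 1.27 above it in minus Pi roots (limma adjusted p = 0.0275 and 0.0074). The other 3 did not pass in either arm: PSBO1 differed by 0.20 and -0.32, RCA by -0.058 and -0.14 and LHCB3 by 0.80 and -0.12, in plus and minus Pi roots (limma adjusted p from 0.347 to 1). Their part in the results was not tested.

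As background, many plant genes follow a daily rhythm set by the circadian clock and by light. Around dawn the clock relies on MYB-like factors, the REVEILLE (RVE) proteins among them, with their LNK coactivators, and later in the day these give way to PRR5, TOC1 and other evening genes. HY5 and HYH are related bZIP transcription factors that act downstream of the photoreceptors and activate, among others, genes of flavonoid synthesis and of plastid function. The roots of plants carry a clock of their own, which is coupled to the shoot.

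The low at 6 h ranged widely in depth. For each probe set there were 4 falls, 6 h against 0 h and against 24 h in each arm, and the smallest of the 4 had a median of 1.08 on the log2 scale, from 0.81 to 4.82. It was at least 1 (a 2-fold fall) in 40 probe sets, at least 1.5 in 18 and at least 2 in 4. The median fall was 1.32 from 0 h to 6 h in plus Pi roots and 1.36 in minus Pi roots, and the median height of 24 h over 6 h was 1.38 and 1.62. In 58 of the 68 every 6 h array lay below every 0 h and every 24 h array of its arm, in both arms, where 1.5% of all 22746 probe sets had this order; the choice of the probe sets used the same values, so nothing is read from the count. The 10 without it were CDF3, OHP, LCL1, FLS1, UGT78D2, CYP91A2, 254806_at, 258560_at, 263320_at and 264092_at. Taken by experiment, all 4 falls were above 0 in 3 of 3 experiments in 67 probe sets. The exception was 263320_at, whose smallest fall was -0.16 in experiment 2. Some of the 67 were near 0: OHP had 0.0051 in experiment 1, and FLS1 and 258560_at had 0.014 and 0.048 in experiment 2. In experiments 1, 2 and 3 alone, 19.1%, 16.7% and 14.2% of all probe sets had all 4 falls above 0. The share with this in 3 of 3 experiments is not given here. The choice used these values, so nothing is read from the 67. The heat map of all 68 by array shows the 6 h columns of both arms as the low ones.

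**Figure D1:**
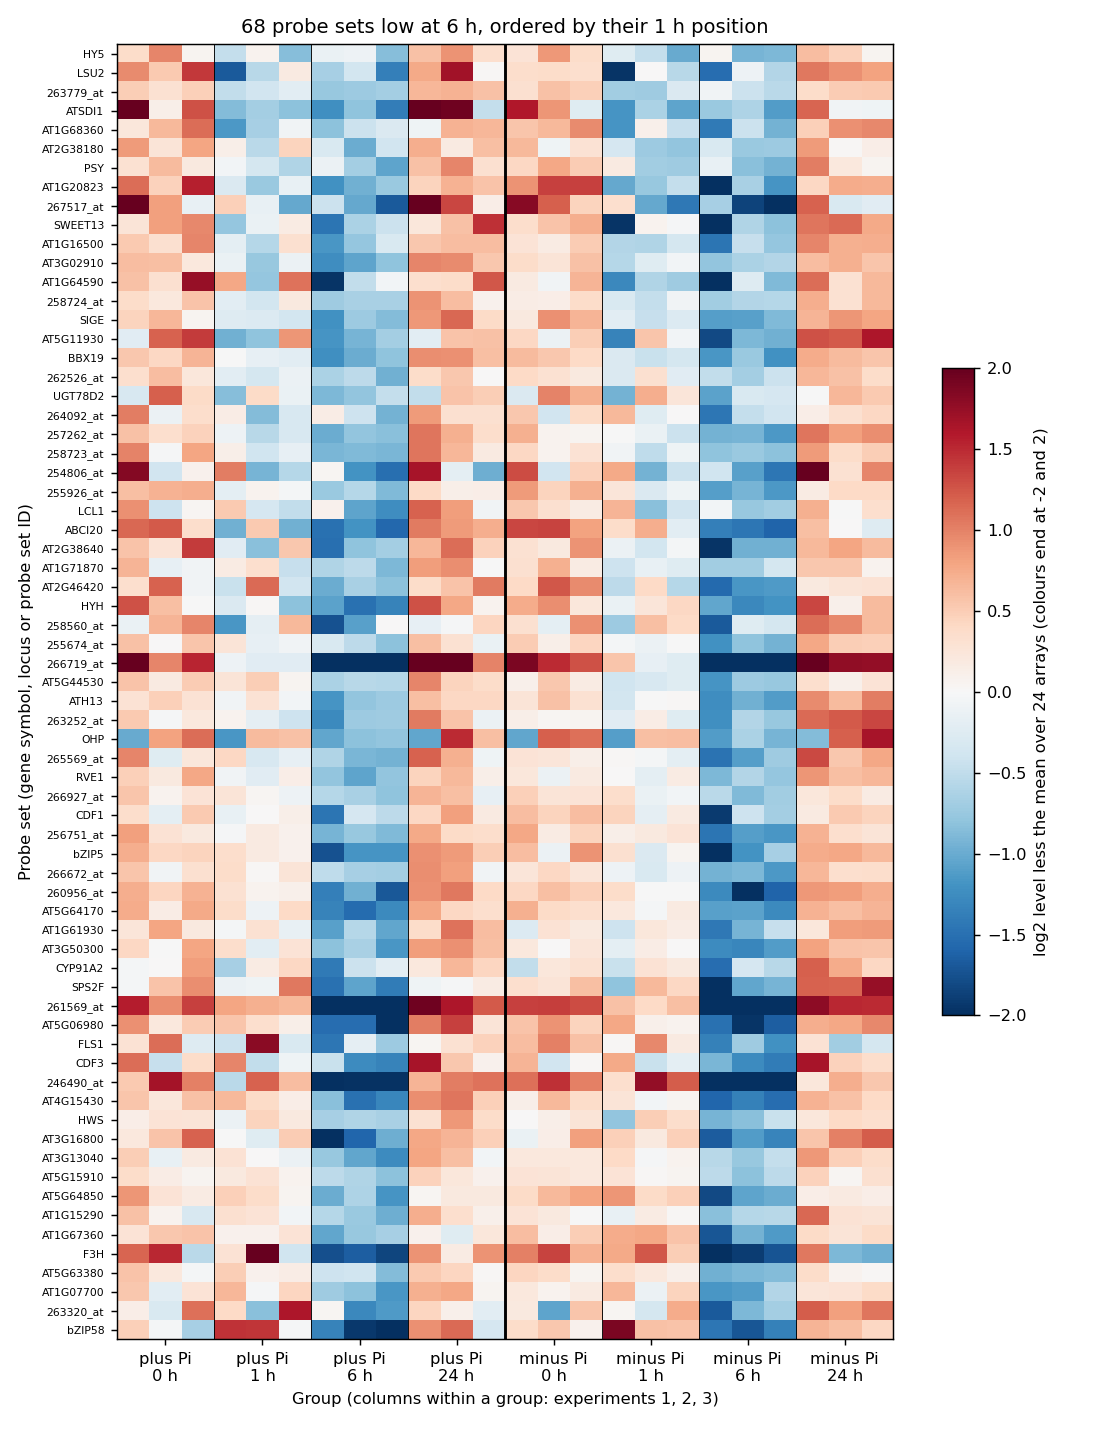
Each row is 1 of the 68 probe sets and each column 1 of 24 arrays, with 3 experiments per group; colour gives the log2 level less the mean of that row over 24 arrays. The 6 h columns are the lowest in both arms in nearly all rows, and the 1 h columns run from low at the top (HY5, LSU2) to high at the bottom (bZIP58).

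The deepest lows belonged to 2 unnamed probe sets, singled out after their values were seen. In plus Pi roots 266719_at stood at 9.34, 8.28 and 8.83 at 0 h, 7.19, 7.08 and 7.07 at 1 h, 4.0, 4.04 and 3.95 at 6 h and 9.76, 9.34 and 8.29 at 24 h, in experiments 1, 2 and 3. In minus Pi roots it stood at 9.19, 8.78 and 8.58 at 0 h, 7.85, 7.13 and 7.06 at 1 h, 3.76, 4.08 and 4.06 at 6 h and 9.39, 9.07 and 9.06 at 24 h. The 6 h arrays lay between 3.76 and 4.08 in both arms, far below every other array, and the 1 h arrays formed a middle step; the smallest of its 4 falls was 4.82, or 28.2-fold. The probe set 261569_at went from 10.05 ± 0.33 to 5.12 ± 0.16 in plus Pi roots and from 10.11 ± 0.041 to 5.33 ± 0.33 in minus Pi roots (SD, n = 3), with a smallest fall of 4.79. A probe set that names several genes, 246490_at, followed with a smallest fall of 3.24.

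Among probe sets with 1 gene, the deepest low was that of AT5G06980, listed by RefSeq as LNK4, a member of the night light-inducible and clock-regulated (LNK) family. In plus Pi roots its level was 9.25, 8.54 and 8.84 at 0 h, 8.88, 8.67 and 8.45 at 1 h, 6.82, 6.81 and 5.89 at 6 h and 9.35, 9.71 and 8.59 at 24 h. In minus Pi roots it was 8.90, 9.24 and 8.77 at 0 h, 9.10, 8.44 and 8.41 at 1 h, 6.84, 6.37 and 6.68 at 6 h and 9.05, 9.11 and 9.29 at 24 h. The 6 h arrays of both arms lay between 5.89 and 6.84 and all 18 others between 8.41 and 9.71, so no array of another time overlapped; the 4 falls were 2.37 and 2.34 against 0 h and 2.71 and 2.52 against 24 h, in plus and minus Pi roots. AT5G64170 (LNK1), a coactivator of the RVE factors, went from 8.73 ± 0.35 to 6.80 ± 0.14 in plus Pi roots and from 8.66 ± 0.21 to 7.04 ± 0.11 in minus Pi roots (SD, n = 3), and was back at 8.69 ± 0.23 and 8.84 ± 0.048 at 24 h. Its 6 h arrays were the lowest of each experiment in both arms.

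Both RVE factors named among the 68 were much shallower. RVE1 (AT5G17300), which links the clock to auxin, stood at 5.66 ± 0.28, 5.13 ± 0.18, 4.30 ± 0.16 and 5.59 ± 0.27 at 0, 1, 6 and 24 h in plus Pi roots. In minus Pi roots it stood at 5.28 ± 0.19, 5.17 ± 0.18, 4.43 ± 0.16 and 5.90 ± 0.15, with a smallest fall of 0.85. LCL1 (AT5G02840), also called RVE4, had falls of 0.92 and 0.84 against 0 h, but its experiments lay so far apart that the groups overlapped: the 6 h arrays of experiment 1 were at 8.44 and 8.29, above the plus Pi 0 h array of experiment 2 at 7.94. CDF1 (AT5G62430) and CDF3 (AT3G47500) encode DOF factors that hold back the flowering gene CONSTANS in the morning. The 6 h mean of CDF1 was 1.00 below its 0 h mean in plus Pi and 1.57 below it in minus Pi roots. That of CDF3 was 1.36 and 1.3 below, and within each experiment its 6 h array was below its 0 h and 24 h arrays, although experiment 1 ran higher than the others throughout (9.40, 7.83 and 8.66 at 0 h in plus Pi roots).

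The light-signalling genes HYH, BBX19 and HY5 had the low at 6 h in common and differed in how they reached it. HYH (AT3G17609) stood in plus Pi roots at 6.24, 5.56 and 4.95 at 0 h, 4.66, 4.98 and 4.13 at 1 h, 3.89, 3.47 and 3.63 at 6 h and 6.23, 5.73 and 5.02 at 24 h. Without Pi it stood at 5.70, 5.89 and 5.19 at 0 h, 4.83, 5.20 and 5.37 at 1 h, 3.92, 3.66 and 3.77 at 6 h and 6.30, 5.06 and 5.59 at 24 h, so that 1 h lay between the 0 h and the 6 h level in every experiment but experiment 3, where the minus Pi array at 1 h was the higher one. BBX19 (AT4G38960), a B-box protein gene of light and flowering control, stood in plus Pi roots at 7.58, 7.46 and 7.72 at 0 h, 7.04, 6.88 and 6.84 at 1 h, 5.81, 6.05 and 6.24 at 6 h and 7.97, 7.96 and 7.64 at 24 h. In roots without Pi it stood at 7.68, 7.59 and 7.44 at 0 h, 6.75, 6.60 and 6.70 at 1 h, 5.88, 6.30 and 5.83 at 6 h and 7.79, 7.67 and 7.60 at 24 h. Its replicates were tight and the 0 h, 1 h and 6 h arrays did not overlap in either arm, so BBX19 came down in steps and was back at its 0 h level by 24 h.

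HY5 (AT5G11260), the bZIP factor that promotes light-grown development, was already low at 1 h. In plus Pi roots its level was 7.53, 8.14 and 7.21 at 0 h, 6.68, 7.22 and 6.30 at 1 h, 7.02, 7.06 and 6.30 at 6 h and 7.74, 8.06 and 7.50 at 24 h. Without Pi it was 7.43, 8.02 and 7.52 at 0 h, 6.91, 6.68 and 6.16 at 1 h, 7.21, 6.22 and 6.27 at 6 h and 7.78, 7.61 and 7.21 at 24 h. In each experiment and arm the 1 h array lay below the 0 h and the 24 h array, by 0.52 or more against 0 h. The 6 h array lay nearer to the 1 h than to the 0 h array, except in minus Pi roots of experiment 1. There it stood at 7.21, nearer to 7.43 at 0 h than to 6.91 at 1 h. The smallest of its 4 falls was 0.83 in the group means, close to the threshold of 0.8, and 0.22 in experiment 1 alone. The bZIP factor genes bZIP5 (AT3G49760) and bZIP58 (AT1G13600) had smallest falls of 1.8 and 1.77.

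**Figure D2:**
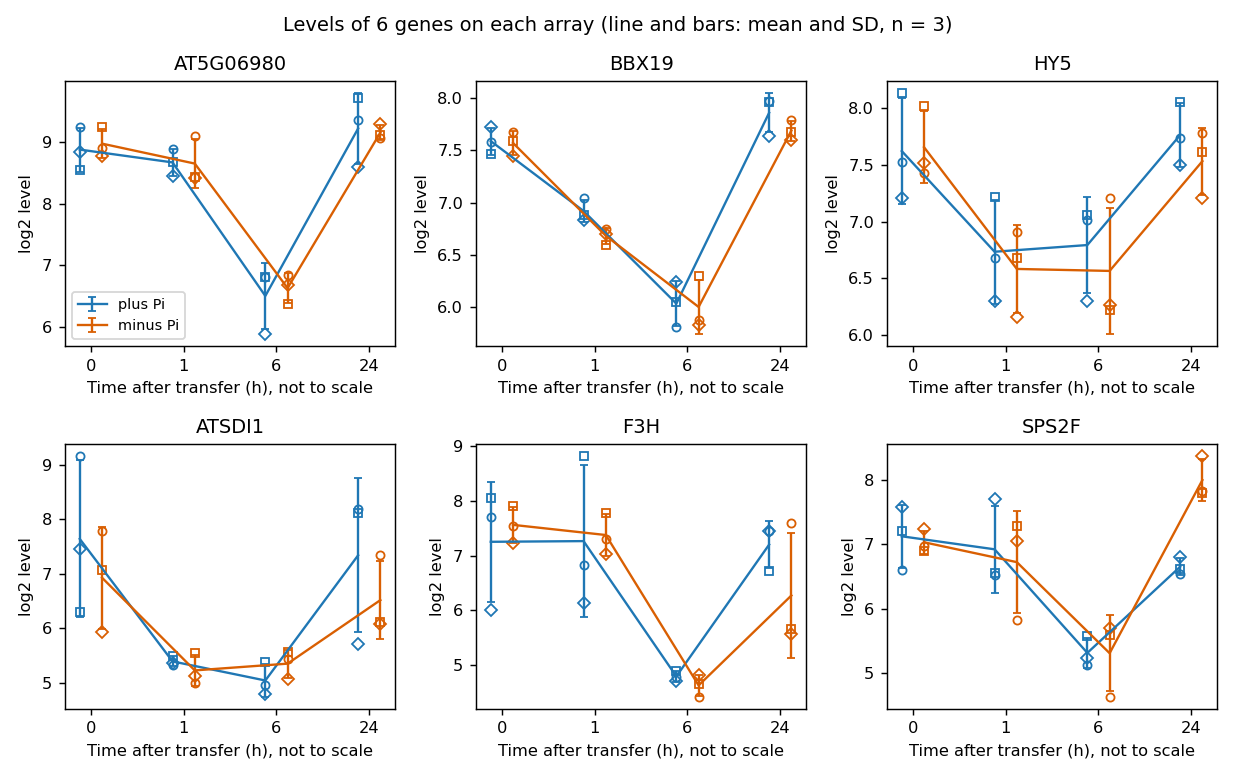
Each panel gives the log2 level of 1 gene on every array against time after transfer (hours, evenly spaced), with circles, squares and diamonds for experiments 1, 2 and 3, blue for plus Pi and orange for minus Pi roots, and lines and bars for the mean and SD of 3 arrays. AT5G06980, F3H and SPS2F were still high at 1 h, BBX19 was part of the way down, and HY5 and ATSDI1 lay near their 6 h level.

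Among the 68 were also single genes of the plastid and of pigment synthesis. SIGE (AT5G24120), listed also as SIG5, a sigma factor of the plastid RNA polymerase, went from 6.25 ± 0.31 to 4.93 ± 0.25 in plus Pi and from 6.46 ± 0.36 to 4.84 ± 0.12 in minus Pi roots (SD, n = 3), and all 6 h arrays lay below the other arrays. OHP (AT5G02120), a one-helix protein of the light-harvesting protein superfamily, had a smallest fall of 1.19 in the group means but was flat in experiment 1, where its 8 arrays lay between 4.05 and 4.35. In experiments 2 and 3 its plus Pi 0 h arrays were at 6.03 and 6.34 and its plus Pi 6 h arrays at 4.40 and 4.43, so the low of OHP rests on 2 of 3 experiments. PSY (AT5G17230), the phytoene synthase that makes the first carotenoid precursor, was named after its values were seen. Its 6 h mean was 1.00 and 1.21 below the 0 h mean, in plus and minus Pi roots.

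F3H (AT3G51240), the flavanone 3-hydroxylase of flavonoid synthesis, was the deepest of the pigment genes. In plus Pi roots its level was 7.71, 8.05 and 6.00 at 0 h, 6.83, 8.83 and 6.14 at 1 h, 4.79, 4.89 and 4.70 at 6 h and 7.45, 6.71 and 7.45 at 24 h. In roots without Pi it was 7.55, 7.90 and 7.24 at 0 h, 7.31, 7.79 and 7.04 at 1 h, 4.42, 4.65 and 4.82 at 6 h and 7.60, 5.65 and 5.57 at 24 h. The 6 h arrays of both arms lay between 4.42 and 4.89, and every other array was at 5.57 or more, with the minus Pi 24 h arrays of experiments 2 and 3 the lowest of these. FLS1 (AT5G08640), the flavonol synthase that acts after F3H, was 1.17 lower at 6 h than at 0 h in plus Pi and 1.82 lower in minus Pi roots, and its arrays overlapped: 4.68, 5.93 and 5.39 at 6 h against 6.40, 7.24 and 5.85 at 0 h in plus Pi roots. UGT78D2 (AT5G17050), a flavonoid glucosyltransferase gene named after its values were seen, had a smallest fall of 0.91. Of the other 7 measured genes of the flavonoid list, none passed limma's test of 6 h against 0 h at an adjusted p under 0.05, where 0.879% of all probe sets were higher and 1.46% lower in plus Pi roots and 8.51% and 9.85% in minus Pi roots; at an unadjusted p under 0.05 there were 2 lower in plus Pi roots (CHI, under the symbol TT5, and MYB12), where 5.58% of all probe sets were, and 1 in minus Pi roots (MYB12), where 15.8% were. The chalcone synthase gene CHS, under the symbol TT4, differed by -0.59 and -0.77, and MYB12, an activator of flavonol genes, by -0.67 and -0.80 (adjusted p = 0.422 and 0.0846); with the experiment as a block MYB12 was lower in minus Pi roots.

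Sugar synthesis and transport were represented by SPS2F and SWEET13. SPS2F (AT5G11110), a sucrose phosphate synthase gene, stood in plus Pi roots at 6.60, 7.20 and 7.57 at 0 h, 6.52, 6.55 and 7.70 at 1 h, 5.14, 5.58 and 5.24 at 6 h and 6.54, 6.62 and 6.80 at 24 h. Without Pi it stood at 6.97, 6.89 and 7.23 at 0 h, 5.83, 7.29 and 7.05 at 1 h, 4.64, 5.60 and 5.70 at 6 h and 7.82, 7.79 and 8.37 at 24 h. The 6 h arrays were the lowest in both arms, and at 24 h the minus Pi arrays overshot their 0 h level in 3 of 3 experiments while the plus Pi arrays stayed below theirs. SWEET13 (AT5G50800), which encodes a sucrose transporter, went from 7.65 ± 0.37 to 6.13 ± 0.54 in plus Pi and from 7.52 ± 0.19 to 5.71 ± 0.95 in minus Pi roots (SD, n = 3). Its 1 h levels of 6.72 ± 0.48 and 6.33 ± 1.15 were nearer to the 6 h than to the 0 h means, and the minus Pi array of experiment 1, at 5.01, was far below those of experiments 2 and 3, at 7.03 and 6.95.

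Both sulfur genes among the 68 are known for their induction by sulfur deficiency. ATSDI1 (AT5G48850), sulphur deficiency-induced 1, stood in plus Pi roots at 9.16, 6.30 and 7.45 at 0 h, 5.32, 5.49 and 5.36 at 1 h, 4.95, 5.37 and 4.79 at 6 h and 8.19, 8.12 and 5.70 at 24 h. In roots without Pi it stood at 7.78, 7.07 and 5.93 at 0 h, 5.0, 5.54 and 5.13 at 1 h, 5.43, 5.56 and 5.06 at 6 h and 7.35, 6.11 and 6.08 at 24 h. The 1 h and 6 h arrays were all between 4.79 and 5.56, below every 0 h and 24 h array, while the 0 h and 24 h arrays themselves ranged from 5.70 to 9.16. LSU2 (AT5G24660), response to low sulfur 2, likewise stood at 10.14 ± 0.45, 8.5 ± 0.93, 8.38 ± 0.51 and 10.00 ± 0.83 at 0, 1, 6 and 24 h in plus Pi roots and at 9.53 ± 0.020, 8.34 ± 1.01, 8.44 ± 0.72 and 10.10 ± 0.13 in minus Pi roots. Its 1 h arrays were spread, from 7.51 to 9.36 in plus Pi roots, and that of experiment 3 was well above the 6 h array of its experiment at 7.81. Of the other 5 measured genes of the sulfur list, the sulfate transporter gene SULTR4;1 fell from 0 h to 6 h by 0.99 in plus Pi roots (limma adjusted p = 0.00261) and differed by 0.17 in minus Pi roots (adjusted p = 0.596). MYB28, a regulator of glucosinolate synthesis, was 0.64 higher at 6 h in minus Pi roots (adjusted p = 0.022) and differed by 0.076 in plus Pi roots (adjusted p = 1). Neither call held without experiment 1 or without experiment 2, nor that on MYB28 without experiment 3. LSU1 and APR3 differed by -1.36 and -0.95 in plus Pi and by 0.24 and 0.14 in minus Pi roots with adjusted p of 0.741, 0.199, 0.912 and 0.851.

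Other members carry no role in the annotation used here or one known only by its family name. ABCI20 (AT5G02270), an ATP-binding cassette protein gene, stood at 10.47 ± 0.48 at 0 h and 8.14 ± 0.20 at 6 h in plus Pi roots and at 10.72 ± 0.32 and 8.08 ± 0.12 in minus Pi roots, the smallest of its falls being 1.59. Known by locus alone, AT2G38640, AT4G15430, AT3G16800 and AT1G20823 had smallest falls of 1.74, 1.67, 1.64 and 1.54, and AT1G64590 one of 1.39. ATH13 (AT5G64940), an ABC1-like protein gene also called OSA1, had one of 1.25, and the cytochrome P450 gene CYP91A2 (AT4G37430), also listed as CYP81F1, one of 0.82. The members were of all levels: their mean over 24 arrays ran from 3.82 (258724_at) to 11.9 (266927_at), and 50 of 68 lay above 6.42, the median of all probe sets. The highest with 1 gene was AT3G02910 at 10.38.

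The remaining named genes had no role that the annotation used here gives, apart from HWS (AT3G61590), an F-box protein gene named Hawaiian skirt for its floral organs, with falls of 0.86 to 1.15, which was named after its values were seen. AT3G50300 had a smallest fall of 1.28, AT1G16500 one of 1.21, AT5G64850 one of 1.08 and AT1G61930 one of 1.01. Close to the threshold were AT5G15910, AT1G71870, AT3G13040 and AT1G15290 with 0.84, 0.83, 0.81 and 0.81, also named after their values were seen. Among the unnamed probe sets 260956_at combined a high level with a deep low: in plus Pi roots it stood at 10.83, 10.53 and 10.79 at 0 h, 10.41, 10.18 and 10.20 at 1 h, 8.74, 9.14 and 8.40 at 6 h and 11.01, 11.15 and 10.5 at 24 h. Without Pi it stood at 10.52, 10.71 and 10.59 at 0 h, 10.48, 10.10 and 10.09 at 1 h, 8.83, 8.04 and 8.51 at 6 h and 10.98, 10.94 and 10.82 at 24 h. Every 6 h array of 260956_at lay below every other array of both arms, and its smallest fall was 1.96. The unnamed probe sets 256751_at, 257262_at, 265569_at, 258723_at, 255926_at, 263252_at, 266672_at and 262526_at, had smallest falls from 1.29 down to 0.84.

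The arrays at 1 h, which the choice of the probe sets had not used, placed most of the 68 between their 0 h and their 6 h levels. The 1 h position is the 1 h mean less the 6 h mean, divided by the 0 h mean less the 6 h mean; it is 1 at the 0 h level and 0 at the 6 h level. Its median was 0.70 in plus Pi and 0.72 in minus Pi roots. In experiments 1, 2 and 3 the median was 0.608, 0.701 and 0.660 in plus Pi and 0.685, 0.717 and 0.662 in minus Pi roots. Without experiment 2 the plus Pi median was 0.621. The 1 h mean was below the 0 h mean in 63 of 68 in plus Pi roots, where 47.8% of all probe sets were, and in 62 of 68 in minus Pi roots, where 48.3% were. It was below in both arms in 60 and above in both arms in 3. The 0 h level is one of the values by which the probe sets were chosen, so these counts are given without a test.

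The 68 spread widely around that median. The position was above 0.75 in both arms in 22, below 0.25 in both arms in 3, and in between or split in 43. The 3 below 0.25 in both arms were HY5 (-0.071 in plus Pi and 0.016 in minus Pi roots), ATSDI1 (0.13 in plus Pi and -0.079 in minus Pi roots) and LSU2 (0.065 in plus Pi and -0.089 in minus Pi roots). The value of LSU2 is a mean of experiments that disagreed, since its 1 h arrays in plus Pi roots lay below the 6 h arrays in experiments 1 and 2 and above in experiment 3. In the mean of both arms 263779_at (0.31 in plus Pi and -0.28 in minus Pi roots) was as near 0, and the next were AT1G68360, with -0.097 in plus Pi and 0.25 in minus Pi roots, AT2G38180 (0.47 in plus Pi and -0.030 in minus Pi roots), PSY (0.28 in plus Pi and 0.19 in minus Pi roots) and AT1G20823 (0.28 in plus Pi and 0.23 in minus Pi roots). At the other end bZIP58 was higher at 1 h than at 0 h: its arrays were 8.89, 8.86 and 7.41 at 1 h against 7.91, 7.39 and 6.77 at 0 h in plus Pi roots, and 9.32, 8.02 and 8.01 against 7.80, 7.98 and 7.53 in minus Pi roots. Every 1 h array of bZIP58 was above the 0 h array of its own experiment and arm, and the position was 1.58 in plus Pi and 1.37 in minus Pi roots. AT1G07700 (1.13 in plus Pi and 1.16 in minus Pi roots), F3H (1.01 in plus Pi and 0.94 in minus Pi roots) and AT5G63380 (1.00 in plus Pi and 0.95 in minus Pi roots) had 1 h means close to or above their 0 h means. The light and clock genes did not share one position. HYH had 0.48 in plus Pi and 0.75 in minus Pi roots, BBX19 0.57 in plus Pi and 0.43 in minus Pi roots, LCL1 0.69 in plus Pi and 0.38 in minus Pi roots, AT5G64170 (LNK1) 0.83 in plus Pi and 0.78 in minus Pi roots, CDF3 0.85 in plus Pi and 0.95 in minus Pi roots and AT5G06980 0.91 in plus Pi and 0.86 in minus Pi roots.

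**Figure D3:**
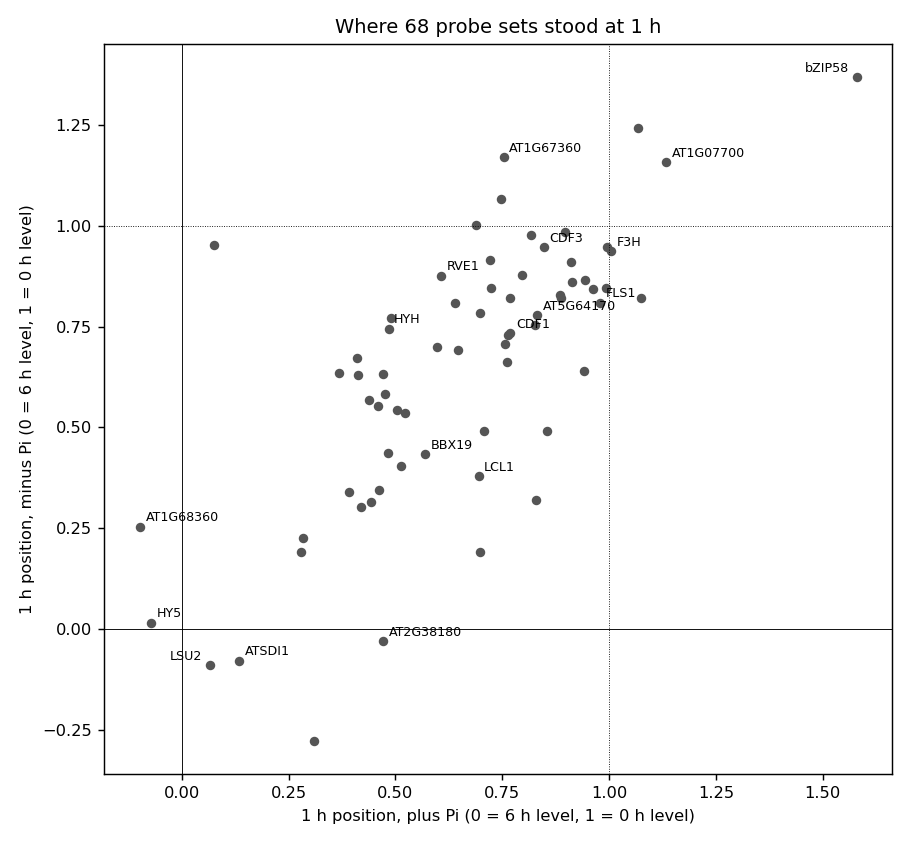
Each point is 1 of 68 probe sets, with its 1 h position in plus Pi roots on the x axis and in minus Pi roots on the y axis (no unit; 0 is the 6 h level, 1 the 0 h level). Most points lie between 0.4 and 1 on both axes; HY5, ATSDI1 and LSU2 lie near 0 and bZIP58 lies above 1 on both.

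By 24 h the level had returned, by the choice of the probe sets, and how far it returned differed between genes. The 24 h mean less the 0 h mean had a median of 0.078 in plus Pi and 0.19 in minus Pi roots, and lay within 0.5 of 0 in both arms in 46 of 68. It was above 0 in both arms in 33 and below in both in 10. The choice used both times and the shares over all probe sets are not given here, so nothing is read from these counts. Without Pi, F3H, FLS1 and ABCI20 stayed -1.29, -0.99 and -1.04 from their 0 h mean, where the plus Pi differences were -0.052, -0.11 and -0.035. The opposite was seen in SPS2F, at 0.96 in minus Pi and -0.47 in plus Pi roots, and in AT5G11930, at 1.11 and -0.47. The experiments of F3H disagreed. From 0 h to 24 h in plus Pi roots F3H went from 8.05 to 6.71 in experiment 2 and from 6.00 to 7.45 in experiment 3. In minus Pi roots of experiment 1 F3H was back, at 7.60 against 7.55. CDF3 exceeded its 0 h mean in both arms, by 0.41 and 0.71. At 24 h none of the 68 passed the test between the arms by limma with Benjamini-Hochberg adjustment over all 22746 probe sets, where 0.321% of all probe sets did, and at an unadjusted p under 0.05 there were 6, where 8.82% of all were. With the experiment as a block SPS2F, 1.34 higher in minus Pi roots, and 267517_at, with a difference of -0.999, did pass, beside 4.01% of all. A random block for the experiment kept SPS2F and lost 267517_at, beside 2.95% of all. The choice of probe sets used these arrays, so nothing is read from either count. The corresponding counts were 0 at 0 h, where 0% of all probe sets differed, and 0 at 6 h, where 9.65% did; the limit on the difference between the arms bears on the count at 6 h. At an unadjusted p under 0.05 they were 1 and 5, where 1.32% and 22.6% of all were. With the block 2 passed at 6 h, 263779_at and AT5G63380, beside 22.5% of all.

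The Pi effect at 1 h, minus Pi less plus Pi roots, was a comparison that the choice of the probe sets left free. It was fitted with limma over all 24 arrays and all 22746 probe sets. None of the 68 had an adjusted p under 0.05, where 1.13% of all probe sets did. At an unadjusted p under 0.05 there were 5 of 68, where 10.4% of all probe sets were. The differences ran from -1.23 to 0.76 with a median of -0.045. They were above 0 in 27 and below 0 in 41, and had one sign in 3 of 3 experiments in 21 (30.9%, beside 41.3% of all probe sets). The 95% interval of the difference lay within -1 and 1 in 47 of 68 and within -0.5 and 0.5 in 13, so that a 2-fold difference lay outside the interval in 47 and inside it in the rest. Over all probe sets 87.2% had an interval within -1 and 1. These intervals came from the fit without the experiment as a block and were not recomputed with it, so the counts hold for that fit only. On data simulated for this comparison over 22746 probe sets, the fit recovered 20% of log2 differences of 0.5, 72% of those of 1 and 96% of those of 2 (50 probe sets of each size). The simulated noise was independent between arrays, without the pairing by experiment, and the changed probe sets were drawn from all. The 68 had wider intervals than all probe sets, so these shares are not those of the 68. With the experiment as a fixed block 1 of the 68 passed, AT2G38180 (-0.62, adjusted p = 0.0327), beside 3.97% of all probe sets. With the experiment as a random block 1 passed, AT5G44530 (-0.59, adjusted p = 0.0486), beside 3.88%.

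The 5 with the smallest p were these. AT5G44530 stood at 6.90, 6.97 and 7.06 in minus Pi and 7.56, 7.79 and 7.36 in plus Pi roots at 1 h, without overlap, a difference of -0.59 (95% interval -0.94 to -0.24, limma adjusted p = 0.113). AT1G67360 stood at 8.78, 8.81 and 8.60 against 8.11, 8.12 and 8.31, also without overlap, a difference of 0.55 (interval 0.19 to 0.91, limma adjusted p = 0.17). ABCI20 stood at 9.93, 10.28 and 9.35 against 8.60, 10.08 and 8.59, a difference of 0.76 (interval 0.047 to 1.48, limma adjusted p = 0.437). The groups of ABCI20 overlapped, with its plus Pi array of experiment 2 above 2 of the 3 minus Pi arrays. Lack of overlap was not particular to AT5G44530 and AT1G67360. The 1 h arrays of BBX19 and of 266672_at did not overlap between the arms either. The share of all probe sets without overlap is not given here, so nothing is read from it. AT2G38180 differed by -0.62 (interval -1.21 to -0.033, limma adjusted p = 0.445) and AT1G64590 by -1.23 (interval -2.41 to -0.044, limma adjusted p = 0.453). In AT1G64590 experiments 1 and 3 gave -2.06 and -1.79, and experiment 2 gave 0.17. In the authors' deposited table the lowest p-value of the 68 for this comparison was 0.113, for AT5G44530; the table does not name an adjustment, and the value lies near the adjusted p given above, not near the unadjusted p of 0.00237. Among the clock and light genes, the difference was 0.045 in RVE1 (interval -0.29 to 0.38), -0.11 in AT5G64170 or LNK1 (-0.46 to 0.24), -0.24 in BBX19 (-0.51 to 0.039) and -0.019 in AT5G06980 (-0.61 to 0.58). HYH, with a difference of 0.54, had a wide interval of -0.19 to 1.27.

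**Figure D4:**
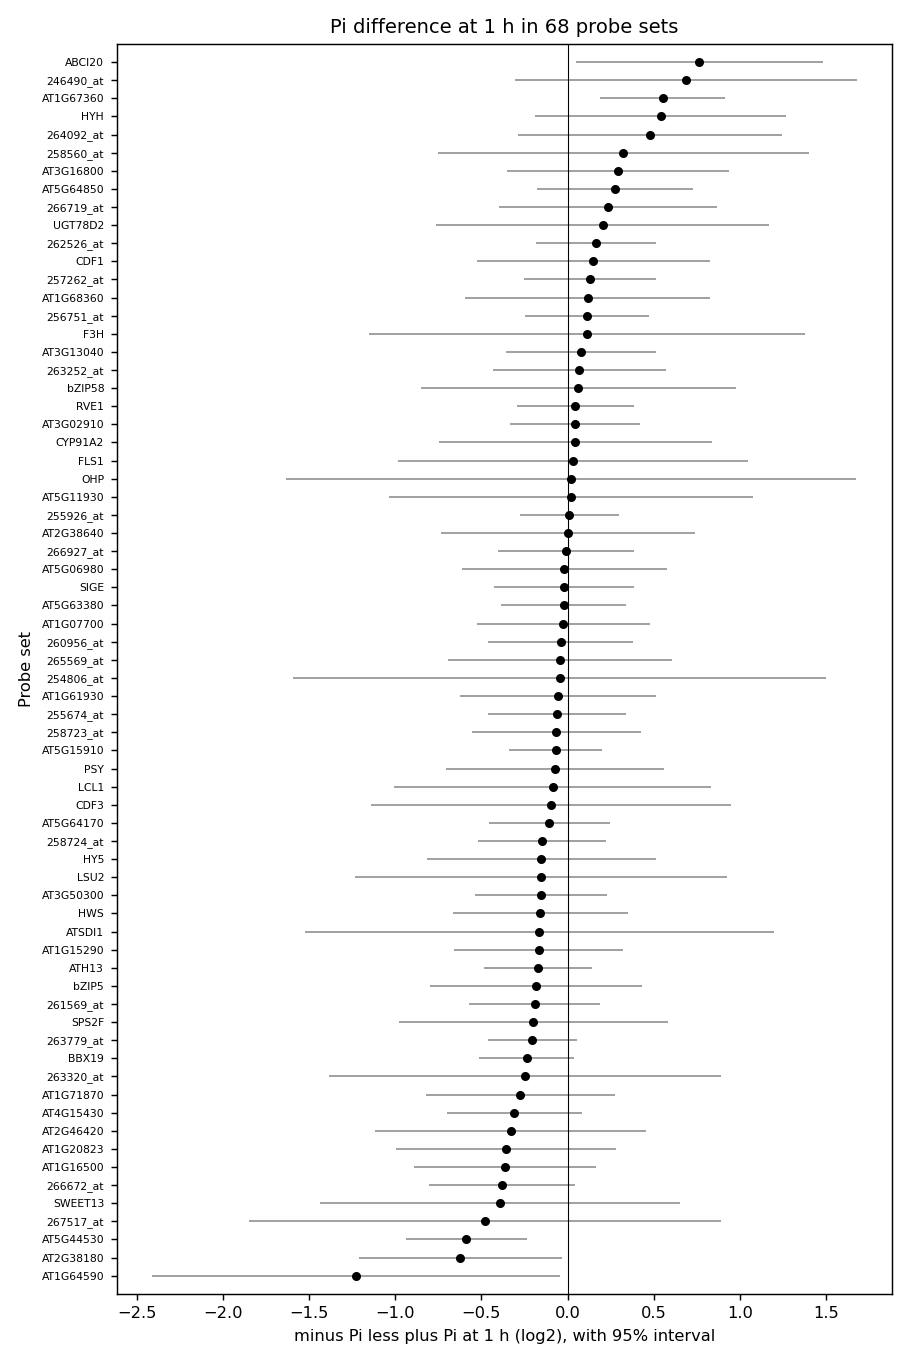
For each of 68 probe sets the point is the difference of minus Pi less plus Pi roots at 1 h on the log2 scale. The line is its 95% interval from limma without the experiment as a block. Intervals cross 0 in 63 of 68, the differences run from -1.23 (AT1G64590) to 0.76 (ABCI20), and no difference passed the adjusted threshold.

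Each experiment was also left out in turn, and the same rule was applied to the means of the remaining 2; the arrays of the experiment left out then gave 1 value per group, so there is no test. With experiment 1 left out the rule chose 54 probe sets, 48 of them among the 68. In experiment 1 itself 38 of the 54 (70.4%) were at least 0.8 lower at 6 h in all 4 differences, beside 0.668% of all probe sets, and 52 (96.3%) were lower in all 4 by any amount, beside 19.1%. With experiment 2 left out it chose 72, of which 51 were among the 68. In experiment 2, 30 (41.7%, beside 0.264%) were at least 0.8 lower and 65 (90.3%, beside 16.7%) were lower. With experiment 3 left out it chose 59, of which 52 were among the 68. In experiment 3, 38 (64.4%, beside 0.369%) were at least 0.8 lower and 58 (98.3%, beside 14.2%) were lower. The median of the smallest fall in the experiment left out was 1.25, 0.697 and 0.920, where all probe sets had a median of -0.19, -0.18 and -0.18. The experiment left out was thus lower at 6 h in most probe sets that the other 2 had chosen, with the smallest median in experiment 2.

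The clock genes give the low at 6 h its surroundings. The lists and this comparison were chosen with the results of these data known, and for the members among them the comparison of 6 h with 0 h is a description. Of 16 morning clock genes listed 10 were measured, and 5 of these 10 were among the 68 (RVE1, RVE4 under the symbol LCL1, AT5G64170 or LNK1, CDF1 and CDF3). The other 6 listed had no probe set that named them alone in the annotation used here, which does not mean that the array lacked them. Whether any of them is among the 19 unnamed members or the 2 that name several genes is not known here. Of the 5 measured genes outside the 68, LNK2 (AT3G54500) had a larger fall than any named gene of the 68. It went from 9.23 to 4.96 in plus Pi and from 9.31 to 5.73 in minus Pi roots, a change of -4.27 and -3.58 (limma adjusted p = 9.29e-07 and 3.31e-06). Its difference between the arms at 6 h was 0.77 (SE 0.35, limma adjusted p = 0.193), above the limit of 0.5, which kept it out. PRR7 differed by 0.023 and 0.51, RVE2 by -0.38 and -0.77, CDF2 by -0.67 and -0.46 and CDF5 by -0.53 and -0.24, none of them past the adjusted threshold. Lower calls thus numbered 1 of these 5 in each arm, beside 1.46% of all probe sets in plus Pi and 9.85% in minus Pi roots. With the experiment as a block they numbered 2 (LNK2 and CDF2) and 3 (with RVE2), beside 3.38% and 16.9%, and PRR7 was higher in minus Pi roots, beside 15.3%.

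None of the 9 measured evening genes was among the 68. From 0 h to 6 h, TOC1, a core clock repressor, rose by 1.18 in plus Pi and by 1.39 in minus Pi roots (limma adjusted p = 0.000493 and 2.83e-05). PRR5, a pseudo-response regulator, rose by 1.48 and 1.45 (limma adjusted p = 0.0447 and 0.0115). COR28, a cold-regulated gene of the evening, rose by 2.52 and 2.80 (limma adjusted p = 0.000231 and 2.23e-05). These were the 3 of 9 called higher in plus Pi roots, beside 0.879% of all probe sets. Without Pi, 8 of 9 were called higher, beside 8.51%, and CHE, under the symbol TCP11, was called lower (-1.13). The call on CHE was lost without experiment 1 and without experiment 2. GI differed by 0.59 and 0.94, PRR3 by 1.54 and 1.62, and COR27 by 1.8 and 2.17. With the experiment as a block 6 were higher in plus Pi roots, beside 2.93%. Without experiment 2 the counts were 0 in plus Pi and 2 in minus Pi roots, and without experiment 3 they were 2 and 5. In plus Pi roots 7 of 9 were higher at an unadjusted p under 0.05 in the fit of all arrays, where 5.62% of all probe sets were. Whether the arms differ in these counts was not tested.

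**Figure D5:**
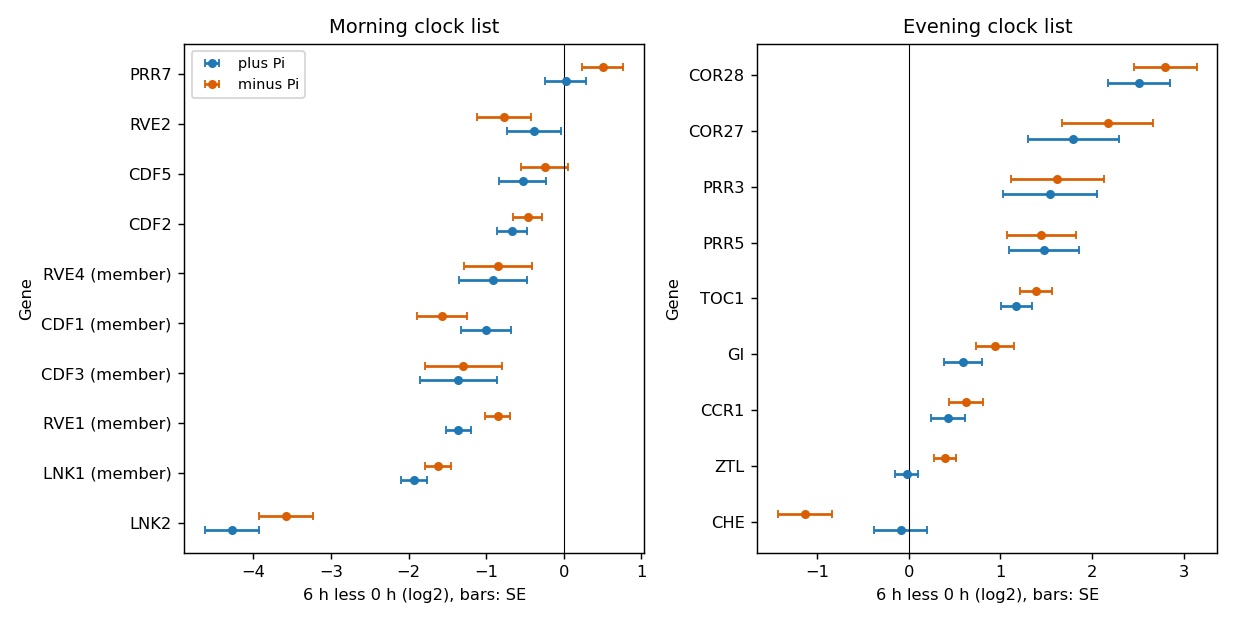
Points give the 6 h mean less the 0 h mean on the log2 scale for each measured gene of the morning (left) and evening (right) clock lists, with bars for the SE of the fit, blue for plus Pi and orange for minus Pi roots; members of the 68 are marked, RVE4 being LCL1 and LNK1 being AT5G64170. All morning genes shown but PRR7 lie below 0 in both arms, the 5 marked ones by the choice of the probe sets. COR28, COR27, PRR3, PRR5, TOC1, GI and CCR1 lie above 0 in both.

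Of 15 listed light-signalling genes 5 were measured, and 3 of them were HY5, HYH and BBX19; PIF5, under the symbol PIL6, differed between 0 h and 6 h by 0.19 and 0.24, and ELIP2 by -0.42 and -0.36, with limma adjusted p of 0.932 and 0.445, and 0.77 and 0.477. No measured gene of the lists for sugar starvation, nitrogen, phosphate, iron, cold and dehydration, heat shock, touch and jasmonate, auxin, cytokinin, gibberellin and brassinosteroid, aquaporins or cell division was among the 68, and none of the measured markers of root, root hair, xylem or shoot tissue was. These lists had 3 to 10 measured genes each, and the 68 are few among 22746 probe sets, so nothing is read from this absence. Unnamed members could also belong to a list. By name, 12 of the 68 were in a list. The list genes called between the arms at 1 h were outside the 68. TCH4 and TCH2, genes induced by touch, were 5.16 and 1.92 higher in minus Pi roots (limma adjusted p = 1.23e-05 and 1.4e-05). GH3.1, an auxin-responsive gene, was 1.62 higher (limma adjusted p = 0.023). Over all probe sets 1.13% were called, so nothing is read from the lack of calls among the 12 listed members.

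The thresholds cut through a continuous range. Just inside the limit of 0.8 on the falls were AT5G63380, 255674_at and 263779_at, each with a smallest fall of 0.81, and just outside were AT4G35030 at 0.797, DDB2 at 0.797 and AT4G32950 at 0.785. For the limit of 0.5 on the difference between the arms at 6 h, 267517_at (-0.47), AT2G46420 (-0.46) and AT1G67360 (-0.44) were just inside, and FAF3 (-0.53), AT4G13010 (0.57) and 264859_at (-0.58) were just outside. Without that limit 94 probe sets had the low at 6 h in both arms.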

How the data were processed

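Roots were profiled on 24 Affymetrix arrays, 3 experiments for each of 8 groups. The authors deposited 1 log2 value per probe set and array in a value table; the summarisation and normalization of the probes were not given in the sources used, and limma is named per the submitters' processing notes. The authors also deposited a table of log2 differences, test scores and p-values, from which only a p-value at 1 h was printed; whether these are adjusted is not named in the header. Of 22810 probe sets 64 control probe sets were left out. Genes were assigned by the loci that the authors' deposited table lists, then by the platform annotation, and symbols and other names from an NCBI RefSeq gene table; 17222 probe sets named 1 gene, 662 several and 4862 none.

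Group means gave the 68 members. The members and the gene lists were chosen with earlier results of these data known. Differences were fitted with limma 3.58.1 in R 4.3.3 on all 24 arrays with 8 group means and 16 residual degrees of freedom, and the Benjamini-Hochberg adjustment ran over 22746 probe sets. Other steps used Python 3.11.15 with pandas 2.3.3. The experiment number marks a run and pairs the arrays. Within an experiment, the mean r of the values less their group mean was 0.554, and the lowest of 12 r between both arms at 1 time was 0.228. The fit with the experiment as a block, other scalings, a filter on low values, other thresholds and left-out experiments or arrays were alternatives. Some members were named by a rule: the 30 deepest with 1 gene, those in a list, at a threshold or at an end of the 1 h position, the return at 24 h, the level or the Pi effect at 1 h. The tests of 6 h against 0 h for list genes were added after the data were seen. Promoter and protein sequences were not used here.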

Additional observations from a re-analysis of the deposited data

Results flagged for a closer look

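In 3 cases every experiment of one arm moved one way and every experiment of the other arm the opposite way. The difference itself was not tested, and the probe sets were chosen on 0 h and 24 h values. How many of all probe sets had such a pattern was not counted, so nothing is read from the number of cases. AT1G67360 at 1 h less 0 h was -0.20, -0.46 and -0.30 in plus Pi roots and 0.13, 0.64 and 0.080 in minus Pi roots, in experiments 1, 2 and 3, so that the arms differed by 0.60. The unnamed probe set 267517_at at 24 h less 0 h was 0.14, 0.51 and 0.29 in plus Pi and -0.64, -1.50 and -0.66 in minus Pi roots, a difference of -1.25. The sucrose phosphate synthase gene SPS2F at 24 h less 0 h was -0.054, -0.59 and -0.78 in plus Pi and 0.85, 0.90 and 1.14 in minus Pi roots, a difference of 1.44.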

How the results depend on the processing

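The choice held 68 probe sets and moved by over 1.5 times with the threshold on the falls, to 119 at a fall of at least 0.6 and 40 at a fall of at least 1. Without 1 experiment it held 54 to 72, of which 48 to 52 were shared with the 68. Without the 3 arrays whose number lies outside the run of the others (plus Pi 1 h, minus Pi 6 h and minus Pi 24 h, all of experiment 2) it held 56, and without the 2 arrays with a second number in their name (minus Pi 1 h and 6 h of experiment 3) 68, sharing 52 and 61. Group medians gave 64 and shared 55. Centring or quantile normalization gave 69 and 70, both sharing 67.

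With the experiment as a fixed replicate block the Pi effect at 1 h was called in 1 of 68 (AT2G38180), beside 3.97% of all probe sets. With a random replicate block it was called in 1 of 68 (AT5G44530), beside 3.88%. The count was 0 in the fit without a block and in the other alternatives run. In those settings 0.0528% to 1.63% of all tested probe sets were called, so nothing is read from the 0. At 6 h 1 of 68 was called between the arms without the 2 arrays with a second number (263779_at), beside 6.32% of all probe sets. The limit on the difference between the arms bears on that count, so nothing is read from it. The plus Pi median of the 1 h position ran from 0.621 to 0.734 and the minus Pi median from 0.707 to 0.715 when 1 experiment was left out; 0.621 was without replicate 2. Over 1 gene at a time, the smallest fall moved by more than the spread between replicates in 19 recomputed values and by less in 525. The higher calls among evening clock genes at 6 h numbered 2 in plus Pi and 5 in minus Pi roots without either set of arrays. No recomputed value changed sign against a call. The cause of these shifts was not tested. The promoter motifs planned for the members were not run, since no sequences were used here.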
